A study of Rattus norvegicus with 99 samples.

Results

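The failing left ventricle (LV) after aortic banding was described from 7 LV libraries, 4 of banded rats (AOB-F) and 3 of sham-operated rats (Sham-LF), out of 33 LV libraries and 99 libraries in the series. They were chosen by their sample titles alone. All animals were male F1 offspring of female Wistar Kyoto and male Lewis rats. In AOB-F a clip that does not constrict when placed was set around the aorta and came to narrow it as the rat grew. Sham-LF rats had the operation without banding. Both groups were sampled at an age of 30 weeks, 24 weeks after surgery, by the sample labels, although the description of the model states different ages. The rats were classed as failing from echocardiography, pressures and clinical signs, and these measures were not used here. Each library came from 1 animal and 1 piece of whole LV tissue, so all cell types of the wall contribute. A pair of further groups of 7 rats each, banded (AOB-H) or sham-operated (Sham-H) and taken earlier in compensated hypertrophy, served to compare the stages. By the sample labels they were taken 7 weeks after surgery and were younger than the failure groups. By library number, their LV libraries fell in several series and those of the failure groups in 1.

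A ventricle that pumps against a narrowed aorta thickens, re-expresses genes of the fetal heart such as those of natriuretic peptides and skeletal actin, and lays down matrix made by fibroblasts that become activated. The adult heart burns mainly fatty acids in its mitochondria, and failing hearts are known for lower expression of the genes for this oxidation. Latent TGF-beta, a driver of fibroblast activation, is stored in the matrix on binding proteins and is released by tension.

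The 7 libraries held 12.6 to 15.7 M (mega) counts in AOB-F and 14.9 to 17.5 M in Sham-LF, and 3 reads, taken as the detection floor, were worth 0.171 to 0.239 CPM (counts per 1 M counts). Floors cover counting error only. The LV label was checked within each animal over 50 genes that separate RV from LV in 26 other animals. All 7 had the RV minus LV difference in the usual direction, at 0.581 to 1.54 times the median of the others. Summed cardiomyocyte markers were at 75620, 100818, 98372 and 82450 CPM in AOB-F replicates 1 to 4 and at 98793 to 125753 CPM in Sham-LF.

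A pair of libraries stood apart in ways that touch the results below. AOB-F replicate 4 held atrial and mesothelial transcripts. Myl4, the atrial light chain, was at 12.2, 6.31, 12.4 and 191 CPM in AOB-F replicates 1 to 4 and at 7.34, 8.94 and 3.32 CPM in Sham-LF replicates 1 to 3, the order used for all values below. Msln, a mesothelial surface protein, was at 1.08, 2.72, 4.48 and 38.9 CPM against 1.18, 2.11 and 7.18 CPM. Sham-LF replicate 2 differed by transcript length. Genes were put in 4 equal classes by length. In this library the class of shortest genes lay 0.19 above the other shams on the log2 scale and the class of longest genes had a median log2 difference of -0.15, while the other 6 libraries lay within 0.09 of 0 in both classes.

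Of 11703 genes tested, 78 (0.666%) rose and 20 (0.171%) fell in AOB-F (adjusted p under 0.05 by edgeR's quasi-likelihood test with Benjamini-Hochberg adjustment). The rises had a median log2 fold change of 1.50, from 0.39 to 5.57, and the falls one of -0.99, from -0.48 to -1.77. At an unadjusted p under 0.05, 823 genes (7.03%) were higher and 663 (5.67%) lower. The log2 fold change was positive for 6178 of the 11703 genes. All 4 AOB-F libraries lay above all 3 shams for 685 genes (5.85%) and below them for 703 (6.01%). Among the called genes, 65 of 78 rises and 20 of 20 falls had groups that did not overlap. The adjusted p of the called genes lay between 0.0292 and 0.0489, close to the threshold. None passed when AOB-F replicate 1 or 4 or any single sham was left out (0 genes each). All 98 kept their direction without each sham in turn. So did the 94 that could still be tested in each case without AOB-F replicate 1 or 4. That follows largely from the genes being called on the same libraries and tests nothing.

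The 4 banded animals did not respond to the same degree. Over the 78 rises, AOB-F replicates 1 to 4 lay a median of 2.06, 0.91, 0.44 and 2.00 above the sham mean (log2 difference), and each sham lay within 0.02 of the mean of the other shams. Replicates 1 and 4 exceeded the sham mean by more than 2-fold for 69 and 67 of the 78 genes, replicate 2 for 31 and replicate 3 for 13. All 78 genes were above every sham in replicates 1 and 4, 76 in replicate 2 and 66 in replicate 3. Replicate 1 was the highest of the 4 for 54 rises and replicate 4 for 22, and replicate 3 was the lowest for 70. The falls had the same order of animals, with medians of -1.47, -0.73, -0.50 and -1.24, and in each of the 4 animals all 20 genes were below every sham. These genes were called on the same libraries, so the counts describe them and test nothing.

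**Figure D1:**
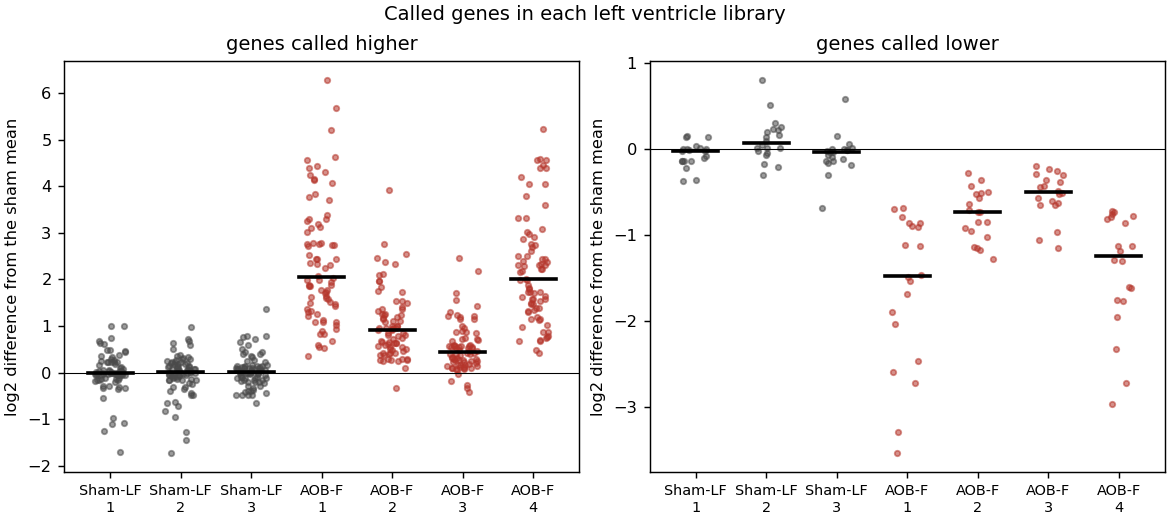
Log2 difference of each called gene from the sham mean (y axis) in each of the 7 LV libraries (x axis), for the 78 genes called higher (left) and the 20 called lower (right). Points are genes and bars are medians. The medians of AOB-F replicates 1 and 4 are 2.06 and 2.00 for the rises, against 0.91 and 0.44 in replicates 2 and 3, and each sham lies within 0.02 of the mean of the other shams.

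The unequal response extended beyond the called genes. Over all tested genes, 8.49% in AOB-F replicate 1 and 7.92% in replicate 4 differed by more than 2-fold from the sham mean, compared with 2.16% in replicate 2 and 1.37% in replicate 3. The shams differed by more than 2-fold from each other's mean for 1.61%, 4.84% and 2.30% of genes, so replicate 2 lay within the range of the shams by this measure and replicate 3 below it. A banded animal was set against the mean of all 3 shams and a sham against that of the other 2, so these shares are not strictly alike. The root mean square log2 difference between libraries was 0.463 between replicates 1 and 4 and 0.387 between replicates 2 and 3, while replicate 3 was 0.339 to 0.468 from the shams, which were 0.335 to 0.502 from each other. The standard deviation was larger in AOB-F than in Sham-LF for 7105 of 11703 genes (60.7%). Among the called genes it was larger for 94 of 98, with a median of 0.742 in AOB-F and 0.151 in Sham-LF (log2 CPM). The fit shares 1 estimate of spread per gene over all conditions, so its SE does not describe the spread within AOB-F. Whether these animals differed in the severity of failure was not tested.

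Among stress and fetal genes of cardiomyocytes, 5 of 18 tested members rose and none fell. The list had a median log2 fold change of 0.95, compared with 0.01 over all genes tested. At an unadjusted p under 0.05, 13 members (72.2%) were higher and 1 (5.56%) lower, against 7.03% and 5.67% of all genes. Nppa, which encodes atrial natriuretic peptide, was at 17569, 3773, 2193 and 16283 CPM in AOB-F and at 824, 827 and 607 CPM in Sham-LF. Every banded animal exceeded every sham, and replicates 1 and 4 were several times above replicates 2 and 3. Nppa rose by 3.73 ± 0.93 on the log2 scale (SE, edgeR adjusted p 0.0472). Nppa is also an atrial gene, and summed CPM of the 10 atrial markers was 281, 210, 256 and 827 in AOB-F and 251 to 264 in Sham-LF, so that replicate 4 stood far above the other 6 libraries. Bmp10, the atrial ligand, was at 0 reads in 6 of the 7 libraries. Without replicate 4 the log2 fold change of Nppa was 3.38, and its part in that library was not tested.

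**Figure D2:**
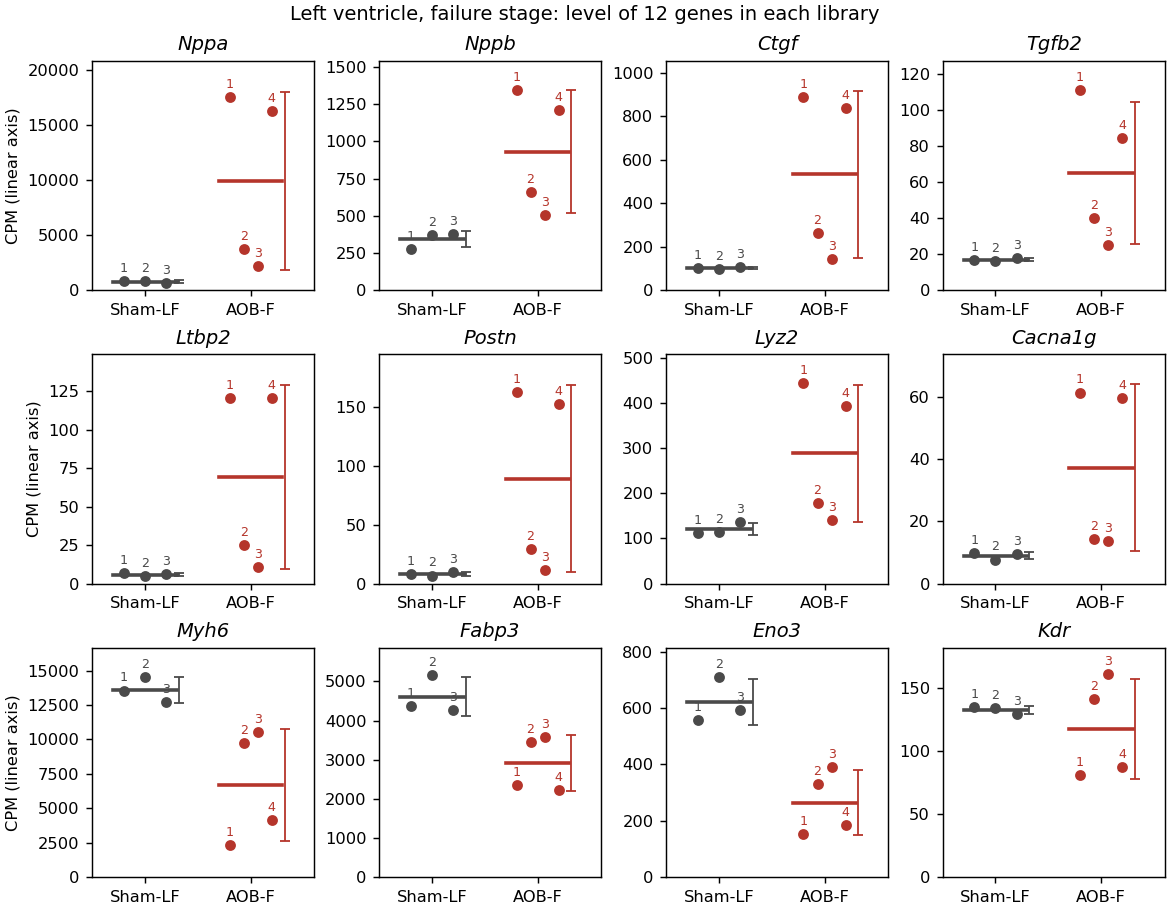
Level in CPM (y axis, linear, from 0) of 12 genes in each LV library of Sham-LF (grey, n = 3) and AOB-F (red, n = 4). Digits give the replicate number, horizontal bars the mean and vertical bars 1 SD. For Nppa, replicates 1 and 4 are at 17569 and 16283 CPM, above replicates 2 and 3 at 3773 and 2193 CPM, and all exceed the shams. For Kdr, replicates 1 and 4 lie below the shams and 2 and 3 above them.

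The other called members of this list were Xirp2, Synpo2l, Ankrd2 and Uchl1. Xirp2, an actin-binding protein with Xin repeats, was at 711 to 2990 CPM in AOB-F, highest in replicates 4 and 1, and at 492 to 649 CPM in Sham-LF, a rise of 1.74 ± 0.39 (edgeR adjusted p 0.0338). Synpo2l, a Z-disc protein, was at 632, 294, 210 and 576 CPM against 175, 192 and 191 CPM and rose by 1.20 ± 0.26 (edgeR adjusted p 0.0320). The groups did not overlap for these genes, with replicate 3 nearest to the shams. Ankrd2, a titin-linked ankyrin repeat protein, rose by 2.03 ± 0.49 (edgeR adjusted p 0.0406) and Uchl1, a ubiquitin hydrolase, by 1.92 ± 0.46 (edgeR adjusted p 0.0374).

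Several classical members did not pass. Nppb, which encodes brain natriuretic peptide, was at 1346, 661, 507 and 1213 CPM against 279, 372 and 377 CPM, with a log2 fold change of 1.44 ± 0.44 (edgeR adjusted p 0.103). Acta1, skeletal alpha-actin, was at 5105, 2694, 1755 and 3279 CPM against 1573, 1345 and 1262 CPM (1.20 ± 0.41, edgeR adjusted p 0.153). For both genes all 4 banded animals were above all shams. Ankrd23 was at 922, 394, 197 and 781 CPM against 119, 102 and 78.4 CPM (2.52 ± 0.64, edgeR adjusted p 0.0528), and Tceal7 had a log2 fold change of 2.28 ± 0.60 (edgeR adjusted p 0.0643). Myh7, the slow beta myosin, showed another order of animals. It was at 9714, 11683, 8761 and 11304 CPM against 6356, 7574 and 5850 CPM (0.65 ± 0.29, edgeR adjusted p 0.342), with the highest level in replicate 2. Myh6, the fast alpha myosin, was at 2325, 9734, 10549 and 4112 CPM against 13546, 14522 and 12694 CPM (-1.02 ± 0.30, edgeR adjusted p 0.0872). Its level in replicates 1 and 4 was thus below that of replicates 2 and 3, which in turn were below all shams. Ankrd1 (0.69 ± 0.25, edgeR adjusted p 0.177) and Penk, proenkephalin (0.39 ± 0.41, edgeR adjusted p 0.849), overlapped between the groups.

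The largest group of named rises encoded extracellular matrix. Of 34 tested matrix glycoproteins and elastic fibre genes, 7 rose and none fell, and the median log2 fold change was 0.53. At an unadjusted p under 0.05, 20 (58.8%) were higher and 1 (2.94%) lower, against 7.03% and 5.67% of all genes. Among 16 markers of activated fibroblasts 5 rose, 15 had a positive log2 fold change and the median was 1.46. At an unadjusted p under 0.05, 10 of the 16 (62.5%) were higher and 0 lower. Of all 11703 genes tested, 78 (0.666%) rose and 6178 had a positive log2 fold change. The called genes Ltbp2, Cilp, Ctgf, Postn and Thbs4 stand in both lists. In bulk tissue, more cells of a type and more RNA per cell cannot be told apart, here and for all cell types below.

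Ltbp2, an elastic fibre protein of the family named after latent TGF-beta binding, was at 121, 24.8, 10.5 and 121 CPM against 6.67, 4.64 and 5.93 CPM. It rose by 3.58 ± 0.68 (edgeR adjusted p 0.0292). Postn, or periostin, a matricellular protein of activated fibroblasts, was at 163, 29.4, 11.8 and 153 CPM against 8.01, 6.83 and 10.1 CPM (3.42 ± 0.80, edgeR adjusted p 0.0352). Ctgf, connective tissue growth factor, was at 887, 265, 142 and 838 CPM against 103, 98.9 and 107 CPM (2.37 ± 0.50, edgeR adjusted p 0.0320). For all 3 genes, replicate 3 stood just above the highest sham and replicates 1 and 4 far above it. Thbs4, a thrombospondin, rose by 3.65 ± 0.86 (edgeR adjusted p 0.0352), Cilp, cartilage intermediate layer protein, by 2.48 ± 0.51 (edgeR adjusted p 0.0320) and Ltbp3 by 0.48 ± 0.11 (edgeR adjusted p 0.0330). Crtac1, cartilage acidic protein, was at 9.94, 0.743, 0.871 and 9.45 CPM against 0.168, 0.493 and 0.475 CPM, which is 129, 12, 14 and 136 reads against 3, 7 and 8 (3.78 ± 0.76, edgeR adjusted p 0.0320).

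Promoters are shown for Ctgf, Thbs4 and Xirp2, called rises whose start region holds a motif of transcription factors known from the loaded heart. The sequences are those of RefSeq, build GRCr8, from 250 bases before to 50 after the gene start, 5′ to 3′ on the gene's strand. Capitals mark MCAT, the site of TEAD factors (CATTCC or, on the other strand, GGAATG), or AP-1 (TGANTCA). Ctgf at chr1:22624565-22624864 (minus strand) holds MCAT starting 166, 101 and 92 bases before the start, Thbs4 at chr2:25760296-25760595 (minus strand) holds it at 178, and Xirp2 at chr3:72533936-72534235 (plus strand) holds AP-1 at 107.
Ctgf: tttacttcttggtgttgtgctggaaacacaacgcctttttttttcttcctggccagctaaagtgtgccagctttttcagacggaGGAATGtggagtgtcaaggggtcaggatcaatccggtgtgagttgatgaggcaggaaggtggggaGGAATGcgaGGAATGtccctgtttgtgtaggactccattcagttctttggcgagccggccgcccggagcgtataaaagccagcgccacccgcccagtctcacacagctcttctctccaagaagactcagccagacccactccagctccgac
Thbs4: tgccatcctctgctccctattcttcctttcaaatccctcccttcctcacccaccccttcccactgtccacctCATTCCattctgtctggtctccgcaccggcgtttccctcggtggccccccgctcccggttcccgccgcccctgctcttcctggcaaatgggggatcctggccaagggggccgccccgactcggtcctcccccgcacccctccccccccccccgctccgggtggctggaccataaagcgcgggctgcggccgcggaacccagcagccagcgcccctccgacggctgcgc
Xirp2: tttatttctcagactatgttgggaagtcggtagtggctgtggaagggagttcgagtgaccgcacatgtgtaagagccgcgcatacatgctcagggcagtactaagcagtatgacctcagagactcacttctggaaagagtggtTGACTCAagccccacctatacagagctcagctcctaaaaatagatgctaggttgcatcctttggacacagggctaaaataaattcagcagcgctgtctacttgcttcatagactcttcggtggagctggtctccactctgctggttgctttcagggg

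Promoters were found for 58 of the 78 rises, 16 of the 20 falls and 9562 of 11703 genes tested. On either strand, MCAT (CATTCC) was held by 10 of 58 rises (17.2%) and by 11.2% of all promoters of this length. The letters AGATAA, to which factors of the GATA family bind, were held by 5 of 58 rises (8.62%) and by 6.38% of all. AP-1 was held by 2 (3.45%) and by 5%, and the CArG box of serum response factor by 0 and by 1.16%. None of the 4 motifs contains another. A match describes the sequence and does not show that a factor binds there.

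Of 11 fibrillar and associated collagens only Col14a1 rose, at 224, 144, 122 and 238 CPM against 92.1, 78.0 and 107 CPM (0.98 ± 0.24, edgeR adjusted p 0.0409), and the list median was 0.40. At an unadjusted p under 0.05, 5 of the 11 (45.5%) were higher and 0 lower, against 7.03% and 5.67% of all genes. Col1a1 was at 337, 215, 174 and 364 CPM against 128, 148 and 169 CPM (0.88 ± 0.26, edgeR adjusted p 0.0992), with replicate 3 close to the highest sham. Col3a1 overlapped between the groups (0.68 ± 0.23, edgeR adjusted p 0.158). None of 12 basement membrane and network genes passed (median 0.14), with the lowest p for Col8a1 (1.56 ± 0.45, edgeR adjusted p 0.0829), Lama4 (0.29 ± 0.15) and Lamb2 (-0.17 ± 0.10). Of 24 genes of collagen processing, Loxl1, a crosslinking oxidase, rose by 1.42 ± 0.31 (edgeR adjusted p 0.0328), and the median was 0.15. At an unadjusted p under 0.05, 8 of these 24 (33.3%) were higher and 0 lower. Of the 12 basement membrane and network genes 1 (8.33%) was higher and 0 lower.

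Bgn, or biglycan, rose among 6 small leucine-rich proteoglycans (median 0.37, and 0.04 both with DESeq2 and with no filter on low counts). It was at 790, 428, 312 and 744 CPM against 242, 220 and 253 CPM (1.25 ± 0.26, edgeR adjusted p 0.0320). Of 30 matrix proteases and inhibitors, 2 inhibitors rose, Serpine2 (1.32 ± 0.26, edgeR adjusted p 0.0292) and Timp2 (0.55 ± 0.13, edgeR adjusted p 0.0352), and the list median was 0.16. Hs3st2, a heparan sulfate 3-O-sulfotransferase, was at 19.3, 3.71, 1.31 and 9.24 CPM against 0.280, 0.0704 and 0.297 CPM, from 251, 60, 21 and 133 reads against 5, 1 and 5. It was the single called gene of 24 for heparan sulfate synthesis and core proteins (5.19 ± 0.95, edgeR adjusted p 0.0292), whose median was 0.14. At an unadjusted p under 0.05, 4 of the 6 proteoglycans (66.7%) were higher and 0 lower. Of the proteases and inhibitors 6 (20%) were higher and 1 (3.33%) lower, and of the heparan sulfate genes 5 (20.8%) and 1 (4.17%). Over all genes 7.03% were higher and 5.67% lower.

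In TGF-beta and BMP signalling, 2 of 39 genes rose, both ligands, and the median was 0.09. Tgfb2 was at 111, 39.9, 25.0 and 84.5 CPM against 16.9, 16.1 and 18.0 CPM (1.94 ± 0.38, edgeR adjusted p 0.0292). Gdf15, a stress cytokine, was at 12.5, 5.26, 2.68 and 8.34 CPM against 1.51, 1.97 and 1.90 CPM (2.00 ± 0.49, edgeR adjusted p 0.0439). For these ligands every banded animal was above every sham. Sfrp1, a secreted Wnt inhibitor, was the only called gene of 29 in Wnt signalling (1.45 ± 0.34, edgeR adjusted p 0.0352, list median 0.16). It was at 43.3, 11.1, 11.2 and 49.0 CPM against 9.75, 11.4 and 10.3 CPM, so replicates 2 and 3 lay within the range of the shams.

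Pi16, a fibroblast gene that encodes a peptidase inhibitor, was at 469, 207, 137 and 411 CPM against 92.6, 92.2 and 92.3 CPM (1.73 ± 0.33, edgeR adjusted p 0.0292). It was the only called gene of 11 general fibroblast markers, whose median was 0.25. At an unadjusted p under 0.05, 5 of the 11 (45.5%) were higher and 1 (9.09%) lower, against 7.03% and 5.67% of all genes. Summed over 12 fibroblast markers, the level was 7991 to 8642 CPM in AOB-F and 6948 to 7921 CPM in Sham-LF. Summed over 17 markers of activated fibroblasts it was 1673, 634, 408 and 1695 CPM in AOB-F and 334 to 367 CPM in Sham-LF. The sum for activated fibroblasts was thus high in replicates 1 and 4 and lowest among the banded animals in replicate 3. Ctgf alone made up 887, 265, 142 and 838 CPM of it, and other called genes also entered it. The sum therefore gives no account of the order of animals apart from the called genes.

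Macrophage markers had a median of 0.60 over 15 genes. All 15 had a positive log2 fold change, against 6178 of 11703 genes tested, and 1 passed. At an unadjusted p under 0.05, 11 (73.3%) were higher, against 7.03% of all genes. Lyz2, lysozyme, was at 444, 178, 140 and 392 CPM against 112, 113 and 136 CPM (1.26 ± 0.31, edgeR adjusted p 0.0470). The summed level of the list was 1643, 1015, 841 and 1522 CPM against 730, 725 and 884 CPM, and replicate 3 lay within the range of the shams. Trem2, a lipid receptor of macrophages named after its values were seen, was at 26.0, 11.2, 7.72 and 20.5 CPM against 6.84, 6.40 and 7.06 CPM (1.27 ± 0.34, edgeR adjusted p 0.0676).

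Complement had a median of 0.50 over 20 genes with none called and 19 of them positive, against 6178 of 11703 genes tested. At an unadjusted p under 0.05, 12 (60%) were higher, against 7.03% of all genes. Serping1, the C1 inhibitor, had a log2 fold change of 0.56 ± 0.15 (edgeR adjusted p 0.0676) and C1qa one of 0.59 ± 0.22. The list shares C1qa, C1qb and C1qc with the macrophage list. Chemokines and inflammatory mediators had a median of 0.29 over 42 genes, with Csf1 (0.50 ± 0.15), Tlr2 (0.86 ± 0.26) and Cxcl16 (0.60 ± 0.21) lowest in p and none called (edgeR adjusted p 0.100 to 0.163). Interferon-stimulated genes had a median of 0.09 over 28, and by animal -0.10, 0.44, 0.07 and -0.02, so that replicate 2 alone stood above the shams (-0.08, -0.03 and 0.11). MHC class II genes had a median of 0.23 over 9, none called, with Ctss (0.60 ± 0.21) positive and Cd74 (-0.36 ± 0.17) negative.

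**Figure D3:**
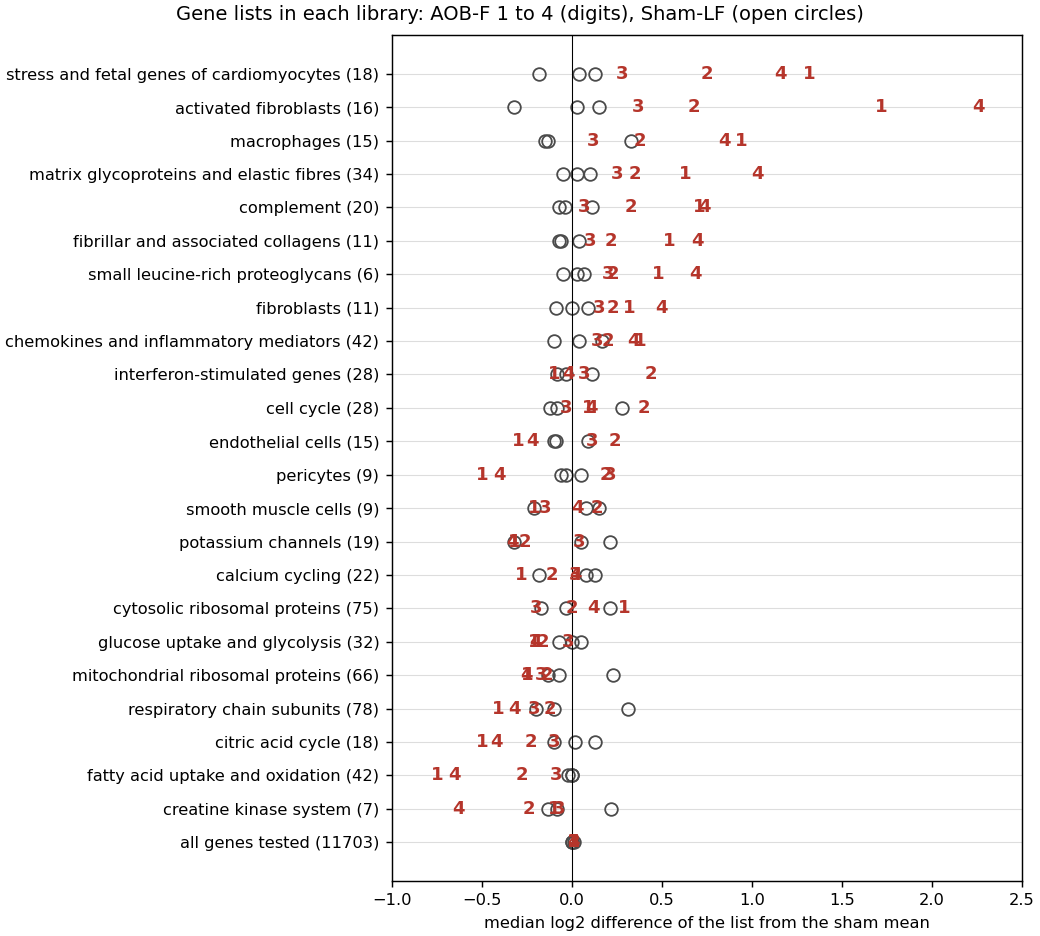
Median log2 difference from the sham mean (x axis) over the tested genes of 23 lists and of all genes (y axis, number of genes in brackets) in each LV library. Red digits are AOB-F replicates 1 to 4 and open circles are the 3 shams, each against the mean of the other shams. For fatty acid uptake and oxidation the animals lie at -0.75, -0.28, -0.09 and -0.65, all below the shams at -0.02 to 0.00.

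Genes of fatty acid uptake and oxidation were lower as a group without any passing the test. Of 42 tested genes 40 had a negative log2 fold change, with a list median of -0.40. Over all genes tested, 6178 of 11703 had a positive one. At an unadjusted p under 0.05, 23 (54.8%) were lower, against 5.67% of all genes. All 4 animals lay below all shams for 18 of the 42, against 6.01% of all genes. Fabp3, the fatty acid binding protein of heart muscle, was at 2341, 3463, 3581 and 2230 CPM against 4374, 5177 and 4276 CPM (-0.67 ± 0.19, edgeR adjusted p 0.0757). Acot2, a mitochondrial acyl-CoA thioesterase, was at 69.7, 113, 148 and 75.7 CPM against 148, 181 and 167 CPM (-0.70 ± 0.19, edgeR adjusted p 0.0676). Eci2, an enoyl-CoA isomerase, was at 138, 186, 214 and 149 CPM against 234, 235 and 248 CPM (-0.48 ± 0.13, edgeR adjusted p 0.0691). Replicates 1 and 4 were lowest for each of these genes, as they were for summed cardiomyocyte markers, whose part in the result was not tested. The list median by animal was -0.75, -0.28, -0.09 and -0.65, and it ranged from -0.53 to -0.30 when single AOB-F animals were left out. Cpt1b, the carnitine transferase at the entry of the pathway, named after its values were seen, was at 533, 562, 605 and 494 CPM against 578, 584 and 604 CPM (-0.10 ± 0.10, edgeR adjusted p 0.831).

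The citric acid cycle showed the same direction in all 18 tested genes and a median of -0.30. Over all genes tested, 6178 of 11703 had a positive log2 fold change. At an unadjusted p under 0.05, 13 of them (72.2%) were lower, against 5.67% of all genes. Idh2 (-0.36 ± 0.12), Suclg1 (-0.45 ± 0.16) and Sucla2 (-0.33 ± 0.13) had the lowest p (edgeR adjusted p 0.146 to 0.245). By animal the medians were -0.50, -0.23, -0.10 and -0.42, with the shams at 0.02, 0.13 and -0.10. Replicate 3 thus lay at the level of the lowest sham. Replicates 1 and 4, the lowest in summed cardiomyocyte markers, were the lowest here too, and the part of those markers was not tested.

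Subunits of the respiratory chain had a negative log2 fold change for 77 of 78 genes, the exception being Cox6b2, with a median of -0.26. Over all genes tested, 6178 of 11703 had a positive one. At an unadjusted p under 0.05, 9 genes (11.5%) were lower, against 5.67% of all genes. Atp5c1 (-0.42 ± 0.16), Atp5a1 (-0.36 ± 0.14) and Uqcrc2 (-0.31 ± 0.12) had the lowest p (edgeR adjusted p 0.232 to 0.244). Mitochondrial ribosomal proteins were negative for 65 of 66 genes (median -0.21, with Mrpl15, Mrps5 and Mrpl38 lowest in p). The respiratory chain medians of the shams were -0.10, 0.31 and -0.20 and those of the banded animals -0.41, -0.12, -0.21 and -0.32. Without that sham the median was -0.15 for the respiratory chain and -0.15 for mitochondrial ribosomal proteins, compared with -0.44 for fatty acid genes and -0.28 for the citric acid cycle. Of the respiratory chain genes 63 of 78, and of the fatty acid genes 10 of 42, belonged to the class of shortest genes in which that sham was high, and the part of length in these differences was not tested. Cytosolic ribosomal proteins, of which 66 of 75 belonged to that class, had a median of 0.06, with Rpl3 lowest in p (0.34 ± 0.18, edgeR adjusted p 0.451).

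**Figure D4:**
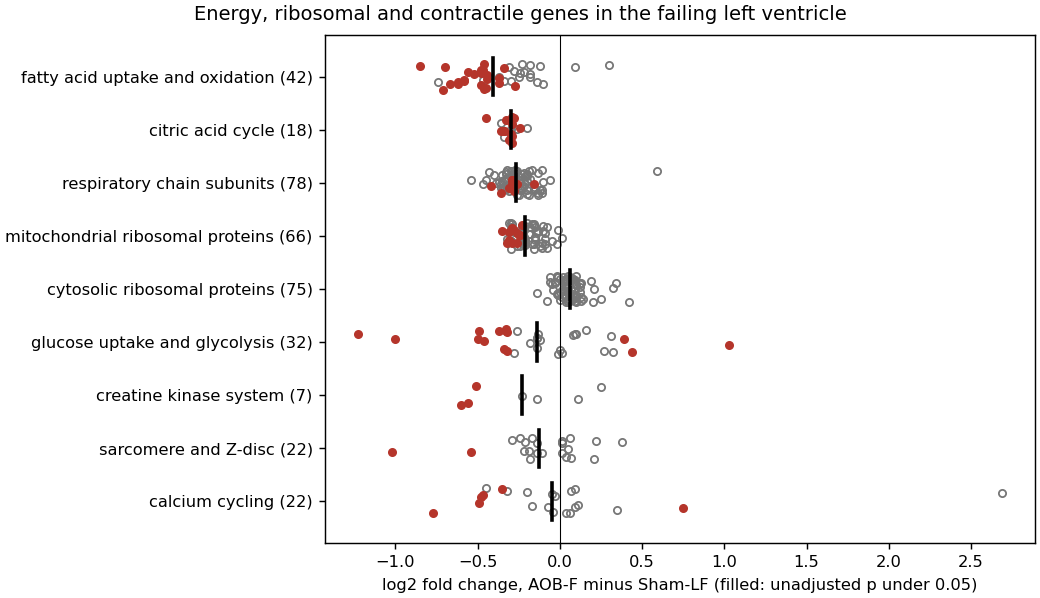
Log2 fold change of AOB-F minus Sham-LF in LV (x axis) for every tested gene of 9 lists (y axis, number of genes in brackets). Filled points have an unadjusted p under 0.05, open points do not, and bars are medians. Fatty acid (median -0.40) and citric acid cycle genes (median -0.30) lie to the left of 0, whereas cytosolic ribosomal proteins centre on 0.06.

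Glycolysis was mixed. Of 32 genes 1 fell, and the median was -0.14. At an unadjusted p under 0.05, 11 (34.4%) were lower and 3 (9.38%) higher, against 5.67% and 7.03% of all genes. Eno3, the muscle enolase, was at 151, 329, 392 and 183 CPM against 557, 712 and 593 CPM and fell by 1.23 ± 0.30 on the log2 scale (edgeR adjusted p 0.0394). The positive members included the hexokinase Hk1 (0.39 ± 0.12) and the lactate transporter Slc16a3 (1.03 ± 0.31), both named after their values were seen and neither called (edgeR adjusted p 0.112 and 0.102). In the creatine kinase system (7 genes, median -0.23), Ckm (-0.56 ± 0.21), Gamt (-0.60 ± 0.25) and Ckmt2 (-0.51 ± 0.22) had the lowest p, and none passed (edgeR adjusted p 0.225 to 0.292).

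The largest falls were of modest size beside the rises, and in each the banded animals were all below the shams. Lsamp, a neuronal adhesion protein, was at 2.23, 11.5, 15.1 and 3.33 CPM against 22.4, 24.1 and 20.5 CPM (-1.46 ± 0.35, edgeR adjusted p 0.0389). Tmod4, a tropomodulin that caps actin filaments, was at 7.78, 21.2, 28.5 and 14.2 CPM against 40.6, 47.4 and 41.9 CPM (-1.26 ± 0.28, edgeR adjusted p 0.0338). Prkar1b, a regulatory subunit of protein kinase A, was at 1.23, 2.10, 3.30 and 1.18 CPM against 3.98, 4.29 and 6.23 CPM (-1.29 ± 0.28, edgeR adjusted p 0.0320). In all 3 the levels of replicates 1 and 4 were the lowest. Orm1, the acute phase protein orosomucoid, had even levels in the banded animals, at 0.770, 0.681, 0.747 and 0.764 CPM against 1.62, 2.53 and 1.25 CPM (-1.27 ± 0.30, edgeR adjusted p 0.0352). Fcer2, the low-affinity IgE receptor, fell by 1.22 ± 0.30, Ppm1j, a protein phosphatase, by 1.02 ± 0.22, Rab3b, a small GTPase of secretion, by 0.95 ± 0.24 and Rd3l by 0.89 ± 0.20 (edgeR adjusted p 0.0320 to 0.0489).

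Among the largest rises were genes known from neural tissue. Ncam1, neural cell adhesion molecule, was at 72.2, 12.7, 7.59 and 55.4 CPM against 7.34, 3.94 and 5.75 CPM (2.69 ± 0.61, edgeR adjusted p 0.0338). It was listed with Schwann cells, whose 8 genes had a median of -0.56, and Sox10, a defining transcription factor of these cells, had a log2 fold change of -0.76 ± 0.41 (edgeR adjusted p 0.467). Robo2, a receptor for Slit guidance cues, was at 4.78, 1.18, 0.685 and 4.93 CPM against 0.448, 0.281 and 0.652 CPM (2.60 ± 0.64, edgeR adjusted p 0.0470). Phyhipl rose by 3.02 ± 0.66 (edgeR adjusted p 0.0330).

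The remaining large rises have varied roles. Fcrl2, an Fc receptor-like protein, was at 29.2, 4.64, 2.68 and 27.2 CPM against 1.34, 1.90 and 1.60 CPM (3.30 ± 0.70, edgeR adjusted p 0.0320). Sbsn, or suprabasin, a secreted protein of epithelia, overlapped between the groups because replicate 3 was at 4.05 CPM, below every sham, whereas replicate 1 was at 71.3 CPM (2.88 ± 0.66, edgeR adjusted p 0.0338). Dupd1, a dual specificity phosphatase, was at 9.09, 5.38, 2.24 and 5.07 CPM against 1.18, 0.915 and 0.890 CPM (2.44 ± 0.47, edgeR adjusted p 0.0292). Phgr1 (2.71 ± 0.64, edgeR adjusted p 0.0352) rested on 14 to 50 reads against 1 to 8. For Testin, with 30, 3, 2 and 29 reads against 0, 2 and 2, the groups overlapped and no fold is given, since 2 banded animals and all shams were at or under the floor of 3 reads.

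Of 22 sarcomere and Z-disc genes none passed (median -0.12, without Sham-LF replicate 2 0.00), with Myh6 and Tnni3, cardiac troponin I (-0.54 ± 0.23), negative and Csrp3 (0.38 ± 0.20) positive. Of 22 calcium cycling genes none passed (median -0.05). At an unadjusted p under 0.05, 5 (22.7%) were lower and 1 (4.55%) higher, against 5.67% and 7.03% of all genes. Atp2a2, the calcium pump of the sarcoplasmic reticulum, was at 5317, 7027, 8952 and 5739 CPM against 9738, 8518 and 9931 CPM (-0.48 ± 0.18, edgeR adjusted p 0.219). Pln, phospholamban, its inhibitor, was at 4728, 4961, 5606 and 4896 CPM against 6342, 6860 and 6155 CPM (-0.35 ± 0.12, edgeR adjusted p 0.153). The groups were separate for Pln and overlapped for Atp2a2, where replicate 3 lay within the shams. Ppp1r1a, a phosphatase inhibitor, had a log2 fold change of -0.77 ± 0.26 (edgeR adjusted p 0.145).

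Of 16 sodium, calcium and pacemaker channels (median 0.01), Cacna1g, a T-type calcium channel of the fetal ventricle, rose. It was at 61.5, 14.3, 13.6 and 59.7 CPM against 9.97, 7.74 and 9.37 CPM (2.04 ± 0.45, edgeR adjusted p 0.0338). None of 19 potassium channels passed (median -0.24). Kcne1, a beta subunit, was at 18.6, 5.32, 4.48 and 13.8 CPM against 3.92, 3.73 and 3.02 CPM (1.56 ± 0.45, edgeR adjusted p 0.0829), and Kcnj5 (-0.74 ± 0.24) and Kcnd2 (-0.49 ± 0.25) were negative. Of 12 genes of the intercalated disc none passed (median -0.04), with Gja1, connexin 43 (-0.43 ± 0.17), Cxadr (-0.80 ± 0.34) and Nrap (0.34 ± 0.16) lowest in p. Among 20 microtubule genes 2 rose (median 0.09), Vash2, which takes part in removing tyrosine from tubulin (1.20 ± 0.26, edgeR adjusted p 0.0326), and Map1b (0.96 ± 0.22, edgeR adjusted p 0.0352). At an unadjusted p under 0.05, 6 of the 20 (30%) were higher and 0 lower, against 7.03% and 5.67% of all genes.

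Endothelial markers had a median of -0.01 over 15 genes and none passed. The animals nevertheless differed. Kdr, a receptor for VEGF, was at 80.5, 141, 161 and 86.9 CPM against 135, 134 and 129 CPM (-0.17 ± 0.19, edgeR adjusted p 0.860), below the shams in replicates 1 and 4 and above them in replicates 2 and 3. The pericyte list (9 genes, median -0.11) showed the same split, with medians of -0.50 and -0.40 in replicates 1 and 4 and of 0.19 and 0.21 in replicates 2 and 3. Kcnj8, a pericyte potassium channel, was at 17.6, 45.9, 51.0 and 16.5 CPM against 41.2, 48.8 and 42.9 CPM (-0.43 ± 0.25, edgeR adjusted p 0.513). A mean over the 4 animals hides this difference in direction, which was not tested. Smooth muscle markers had a median of -0.02 over 9 genes, with Smtn, Cnn1 and Des lowest in p, and lymphatic endothelial markers one of 0.00 over 6, with Lyve1 at 0.70 ± 0.23 (edgeR adjusted p 0.135). Angiogenic ligands and receptors had a median of -0.01 over 26, with Apln, apelin, at 14.8, 33.0, 45.3 and 13.4 CPM against 46.6, 39.1 and 42.3 CPM (-0.68 ± 0.26, edgeR adjusted p 0.220), Vegfb (-0.22 ± 0.08) and Angpt1 (-1.37 ± 0.57).

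**Figure D5:**
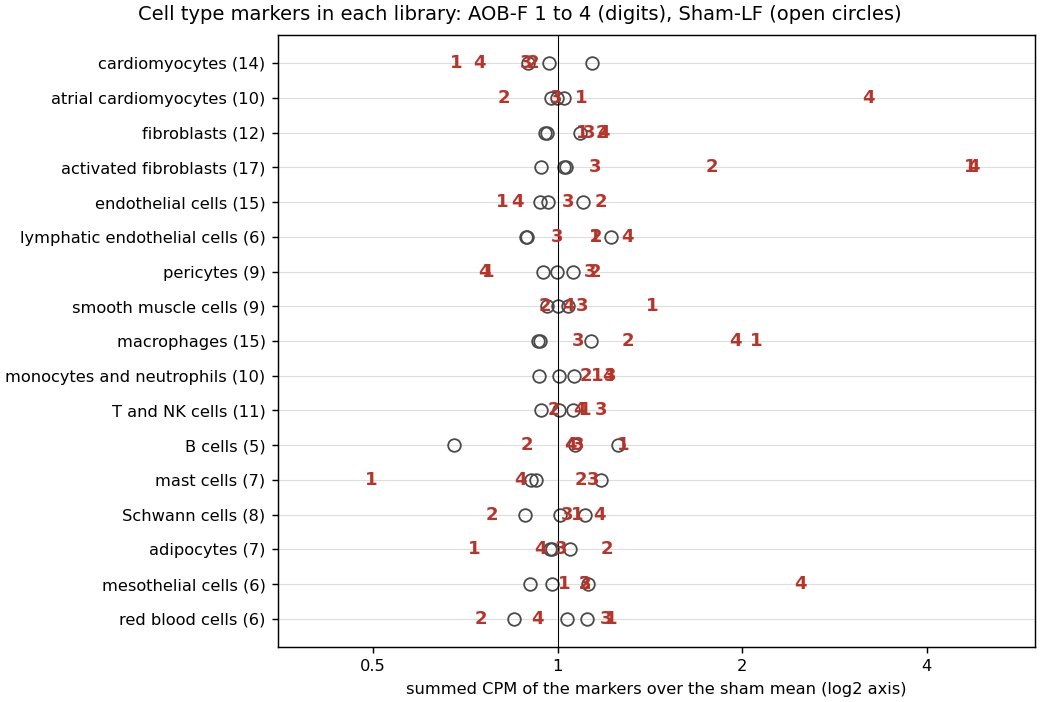
Summed CPM of the markers of 17 cell types divided by the mean of the 3 shams (x axis, log2 scale) in each LV library (number of markers in brackets). Red digits are AOB-F replicates 1 to 4 and open circles are shams. Activated fibroblasts reach 1673 and 1695 CPM in replicates 1 and 4, and atrial and mesothelial markers are high in replicate 4, at 827 and 97.7 CPM.

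The other cell type lists held few or scattered differences. Cardiomyocyte markers had a median of -0.20 over 14 genes, with Myh6, Ckm and Tnni3 lowest in p. At an unadjusted p under 0.05, 3 members (21.4%) were lower, against 5.67% of all genes. The atrial list had a median of 1.28, which was 0.06 without AOB-F replicate 4 and 0.20 without replicate 2. It was 0.15 with the 7 libraries alone and 0.18 without the 3 animals of other groups. By animal the medians were -0.11, 0.15, 0.25 and 0.31, with the shams at 0.05, -0.08 and 0.05. Mesothelial markers (5 genes) had a median of 0.55, which was 0.10 without AOB-F replicate 4, 0.28 and 0.25 without Sham-LF replicates 1 and 2 and 2.05 without Sham-LF replicate 3. Upk1b, an uroplakin of mesothelium, was at 1.39, 0.619, 1.24 and 11.7 CPM against 0.224, 0.211 and 1.19 CPM (2.75 ± 1.28, edgeR adjusted p 0.361). The mesothelial marker Bnc1 had no read in any of the 7 libraries. Adipocyte genes had a median of 1.06 over 7, which turned to -0.10 without AOB-F replicate 2 and to -0.09 with the 7 libraries alone. Adipoq, adiponectin, was at 0.077, 6.75, 0.249 and 2.92 CPM against 0.224, 0.493 and 0.178 CPM, high in replicates 2 and 4 alone (3.09 ± 1.42, edgeR adjusted p 0.355). Its level was under the floor in AOB-F replicate 1 (0.239 CPM) and Sham-LF replicate 3 (0.185 CPM). Plin1, a coat protein of fat droplets, had no read in any sham and was at 0.077, 2.10, 0.0622 and 0.695 CPM in AOB-F. Monocytes and neutrophils (7 genes, median 0.31), T and NK cells (11, -0.11), B cells (2, -0.15), mast cells (7, -0.30) and red blood cells (5, 0.03) had no called gene. Summed mast cell markers were lowest in replicate 1, at 17.0 CPM, with the other 6 libraries at 29.8 to 40.3 CPM.

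Other signalling lists held few called genes. At an unadjusted p under 0.05, 7.03% of all genes tested were higher and 5.67% lower. Of 31 FGF, IGF and stress cytokine genes 6 (19.4%) were higher and 2 (6.45%) lower. Of 10 EGF family genes 2 (20%) were higher and 1 (10%) lower. In TGF-beta and BMP signalling 8 of 39 (20.5%) were higher and 0 lower. Neurohormonal genes had a median of -0.00 over 25 with none called, and the lowest p belonged to the alpha-1 receptors Adra1d (-0.95 ± 0.30, edgeR adjusted p 0.121) and Adra1b (-0.45 ± 0.15) and to Adm, adrenomedullin (0.43 ± 0.17). Adra1d was at 2.62, 6.56, 9.40 and 3.33 CPM against 12.3, 8.87 and 10.8 CPM. Cyclic nucleotide signalling (33 genes, median -0.02) held 1 fall, Prkar1b. In the EGF family (10 genes, median 0.08), Nrg1, neuregulin, was at 0.077, 0.309, 0.373 and 0.278 CPM against 1.01, 0.915 and 1.25 CPM (-1.96 ± 0.54, edgeR adjusted p 0.0691), and Tgfa was at 16.8, 4.52, 4.11 and 9.45 CPM against 2.13, 1.83 and 2.73 CPM (1.95 ± 0.64, edgeR adjusted p 0.135). The groups were separate for both genes. The level of Nrg1 in AOB-F replicate 1 was under that library's floor of 0.239 CPM, so its fold rests on few reads. Of 31 FGF, IGF and stress cytokine genes (median 0.00) Gdf15 alone passed. Of 29 cardiac and hypertrophic transcription factors (median -0.02) none passed, with Hopx, a homeodomain cofactor, at 409, 176, 157 and 332 CPM against 118, 160 and 123 CPM (1.01 ± 0.26, edgeR adjusted p 0.0567).

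Lists of general cell stress and growth had no called gene. Heat shock chaperones had a median of 0.03 over 24 genes, with Hspa2 lowest in p (0.69 ± 0.21, edgeR adjusted p 0.0936), the unfolded protein and amino acid stress response -0.01 over 23, and muscle ubiquitin ligases and autophagy 0.05 over 19. Antioxidant genes had a median of 0.02 over 21, with Gpx3, the extracellular glutathione peroxidase, at 1410, 1007, 873 and 1464 CPM against 731, 736 and 756 CPM (0.68 ± 0.20, edgeR adjusted p 0.0830), above all shams in every animal. Immediate early genes had a median of 0.13 over 24, with Myc at 0.56 ± 0.20 (edgeR adjusted p 0.183), cell cycle genes 0.12 over 28 and clock genes 0.12 over 15.

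The stages were compared through the difference between the banding effect at failure and that in compensated hypertrophy, which share no animal. Age and time after surgery also differ between the stages, and their part in this difference was not tested. The earlier groups include AOB-H replicate 1 and Sham-H replicate 6, whose LV and RV libraries looked exchanged in earlier work. The earlier-stage values below include them. For this difference 0 of 11703 genes (0%) passed edgeR's quasi-likelihood test, with a lowest adjusted p of 0.462, and 890 (7.6%) had an unadjusted p under 0.05. Without these rats and a further one with a banded pulmonary artery, 0 genes passed edgeR's test (lowest adjusted p 0.586, 828 at an unadjusted p under 0.05). AOB-H against Sham-H also gave 0 genes (0%) by edgeR, with 531 (4.54%) at an unadjusted p under 0.05. The 78 rises had a median log2 fold change of 0.29 at the earlier stage and the 20 falls one of -0.19. For all 98 the effect at failure was the larger, which follows in part from their being chosen at failure. Nppa had a log2 fold change of 0.17 at the earlier stage (difference 3.55, edgeR adjusted p 0.462), Ltbp2 one of 1.13 and Hs3st2 one of 3.45 (difference 1.73, edgeR adjusted p 0.936). The list medians at the earlier stage were 0.36 for both stress genes and activated fibroblasts, 0.22 for macrophages, 0.03 for fatty acid genes and 0.01 for the citric acid cycle.

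In the other chambers of these rats, the 78 genes were also unequal between animals. Over the septal libraries of AOB-F replicates 1 to 4 they lay a median of 1.43, 0.46, 1.27 and 0.43 above the sham mean (log2 difference), and over the RV libraries 1.27, 0.05, -0.02 and 1.43. In the septum the library labelled replicate 3 was thus high and that labelled replicate 4 low, whereas in LV and RV it was the reverse. Nppa in the septum was at 14113, 3110, 11348 and 1806 CPM against 860, 693 and 353 CPM. Whether the septal labels or the animals differ was not tested.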

How the data were processed

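RNA of LV, septum and RV of 33 rats was made into strand-specific poly(A) libraries and sequenced single-end. By the methods of the study, adapters were removed with Trim Galore and alignment to Rnor6.0 (UCSC genes) was done with STAR. The authors then obtained gene counts from featureCounts, which left out reads that overlap more than 1 gene. Strand use in counting is not given in the sources used here, so reads of a gene and an overlapping antisense gene may not be told apart. The deposited table holds raw counts for 17337 genes, which entered all tests. Its normalized counts, a signal that the authors scaled by DESeq2 size factors, and its deposited FPKM values served only to derive relative gene length.

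Samples were grouped by title. Genes were filtered with filterByExpr and fitted with edgeR 4.0.16 (TMM, quasi-likelihood F-test, Benjamini-Hochberg over all genes) on all 33 LV libraries in 7 conditions, which share 1 estimate of spread. Log2 fold changes are given with their SE. CPM values use TMM library sizes. Log2 differences of single libraries use log2 CPM with a prior count of 1, and those across chambers log2 of CPM plus 0.5. DESeq2 1.42.0, other normalizations, no filter, fewer libraries, a replicate block and leaving out each animal were the alternatives. The fit was tested on simulated data drawn with 1 spread per gene for all conditions. That test does not cover the unequal spread of AOB-F and Sham-LF. The library numbers of the 7 libraries lie in 1 narrow range with both groups mixed. The labels call the samples separate animals.

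The text names 13 fixed genes, the 15 largest rises and 10 largest falls whose higher group averaged 1 CPM or more (no LOC, RGD or Mir symbols), and of each of 57 lists its called members (up to 6) or else its 3 genes of lowest p, the latter not always all. Some genes that this rule names are not reported here. The libraries, lists and rule were chosen with earlier results of these data known. The 3 animals of other groups whose LV and RV libraries looked exchanged in earlier work stayed in the fit. They are AOB-H replicate 1, Sham-H replicate 6 and 1 rat with a banded pulmonary artery.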

Additional observations from a re-analysis of the deposited data

Results flagged for a closer look

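In the 4 AOB-F libraries, 223 values (166 genes and 57 lists) were screened for a single library far from the other 3, by the gap to the nearest value divided by the range (Dixon's 95% critical value). Chance passes about 1 in 20. The limit was passed by 7 genes and no list.

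AOB-F replicate 4 was high for 4 of them, the atrial genes Myl4 (ratio 0.967, 191 CPM) and Sln (0.907, 81.6 CPM) and the mesothelial genes Upk1b (0.931, 11.7 CPM) and Msln (0.910, 38.9 CPM). The highest level in the other 6 LV libraries was 12.4, 9.27, 1.39 and 7.18 CPM in that order. Kcnj5 was high in replicate 3 (0.851, 28.0 CPM, the others at 20.3 to 21.5). Ier5 was high in replicate 2 (0.849, 59.2 CPM, the others at 52.2 to 53.2). Asns was low in replicate 2 (0.954, 1.86 CPM, the others at 2.22 to 2.24).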

How the results depend on the processing

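The 98 genes called in LV became 245 with DESeq2, 148 with library totals alone, and 0 with the 7 libraries alone, with library series 2 alone (lowest adjusted p 0.0560) and with the replicate block. The 29 of them that belong to the lists became 61 with DESeq2 and 0 under the same 3 fits. Leaving out single animals gave 0 to 636 called genes and 0 to 134 list genes. The count was 0 without AOB-F replicate 1 or 4 or any sham, 262 without AOB-F replicate 2 and 636 without replicate 3. At an unadjusted p under 0.05 the fits with 0 calls held 834 to 1932 genes. The split of 78 higher and 20 lower was 73 and 29 without the 3 animals of other groups, 175 and 70 with DESeq2 and 116 and 32 with library totals, which moved the median of all genes to 0.06. DESeq2 shared 96 of the 98 genes. The stage difference gave 0 genes under each of its alternatives. Replicate numbers did not pair animals (correlations of deviations -0.0148, 0.0899 and 0.0515 for replicates 1 to 3). No named gene changed direction with a call, and the medians of the 8 leading lists moved by less than the spread between the AOB-F animals. Testin was untested without AOB-F replicate 4. At 12.6 to 17.5 M reads, genes under 0.171 to 0.239 CPM were not measurable.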
